A study of Mus musculus with 28 samples.

Results

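MHC class I and class II molecules display peptides on the cell surface, where T cells read them. The genes described here are 10 named members of both routes, found by symbol in both tables of read counts among the 55359 genes that the tables share. Of these, 5 belong to class II. H2-Aa and H2-Ab1 encode the alpha and beta chains of I-A, H2-Eb1 encodes the beta chain of I-E, Cd74 encodes the invariant chain that guards the groove until it is loaded, and Ciita encodes the transactivator that switches on class II promoters. The other 5 belong to class I. H2-K1 and H2-D1 encode heavy chains, B2m encodes the beta-2 microglobulin light chain, Tap1 encodes a subunit of the peptide transporter, and Psmb8 encodes a catalytic subunit of the immunoproteasome. All 10 members had enough reads to be tested in both cohorts.

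Class I molecules sit on nearly all nucleated cells and carry peptides cut by the proteasome, which the transporter moves into the endoplasmic reticulum. Class II molecules are made mainly by dendritic cells, macrophages and B cells, and carry peptides from material that the cell has taken up. Interferon gamma raises both routes, class II through Ciita and class I through the related factor Nlrc5. Healthy myofibers carry little class I and are not known as class II producers, so bulk muscle holds these transcripts in a mixture of myofibers, vessels and immune cells.

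RNA-seq of tibialis anterior (TA) muscle was analysed from 28 mice in 7 groups of 4, all of them C57BL/6N at 8 weeks of age. Cohort G held Dnm2 S619L/+ mice, which carry a heterozygous point mutation, and cohort F held Bin1 mck-/- mice, in which Bin1 was deleted in muscle only. In cohort G the groups were WT on placebo, WT on tamoxifen (WT treated), Dnm2 S619L/+ on placebo (disease) and Dnm2 S619L/+ on tamoxifen (disease treated). In cohort F they were WT on placebo, Bin1 mck-/- on placebo (disease) and Bin1 mck-/- on tamoxifen (disease treated), with no treated WT mice. Tamoxifen, which binds estrogen receptors, was given in the diet. The libraries of polyadenylated RNA were strand-specific in both cohorts. Cohort G used 300 ng of input and 2 min of fragmentation, and cohort F used 350 ng and 8 min. Mutation and library protocol therefore cannot be told apart between cohorts, and every test was made within 1 cohort.

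The depth was 15586333 to 109710886 reads on genes per mouse in cohort G and 24671835 to 35136327 in cohort F. Levels are given as CPM, counts of a gene relative to the library total after TMM scaling. As a check of the labels, Bin1 stood at 521 to 556 CPM in WT and 51.6 to 62.1 CPM in disease mice of cohort F, while Dnm2 differed little between disease and WT mice of cohort G (log2 fold change 0.10, SE 0.07), where a point mutation is not visible in counts. The 7 myofiber markers summed to at least 80200 CPM in every mouse. The labels give no sex, and Xist was above 10 CPM in 2 of 4 mice in each of the WT, WT treated and disease groups of cohort G and in all 4 disease treated mice. In cohort F all mice were above it. Disease mouse 4 of cohort G stood apart in the genes described here. Results for the 10 genes that rest on it are given with and without it, and those for other genes only in part. Fewer cells of a type and less RNA per cell cannot be told apart in bulk tissue.

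The promoters of 5 members are shown because class II and class I promoters share a regulatory layout. Its part in the members' levels was not tested. Each line gives the 200 bases before the start of transcription in RefSeq (GRCm38.p6), 5′ to 3′ along the gene, with matches to the motifs searched in capitals. The expression files themselves were made on build mm39.
H2-Aa, chr17:34287824-34288023, minus strand: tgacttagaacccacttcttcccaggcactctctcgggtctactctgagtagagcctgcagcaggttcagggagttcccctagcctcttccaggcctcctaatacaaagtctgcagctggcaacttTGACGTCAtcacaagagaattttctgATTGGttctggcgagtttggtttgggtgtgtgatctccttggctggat
H2-Eb1, chr17:34305667-34305866, plus strand: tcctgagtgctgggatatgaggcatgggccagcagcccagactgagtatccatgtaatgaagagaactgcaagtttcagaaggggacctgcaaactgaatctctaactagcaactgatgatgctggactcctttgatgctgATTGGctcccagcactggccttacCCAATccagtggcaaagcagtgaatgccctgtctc
H2-K1, chr17:34000334-34000533, minus strand: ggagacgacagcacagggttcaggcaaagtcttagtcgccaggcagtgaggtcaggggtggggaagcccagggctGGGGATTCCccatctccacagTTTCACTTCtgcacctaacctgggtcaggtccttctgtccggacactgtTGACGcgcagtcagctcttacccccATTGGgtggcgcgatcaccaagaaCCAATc
H2-D1, chr17:35262894-35263093, plus strand: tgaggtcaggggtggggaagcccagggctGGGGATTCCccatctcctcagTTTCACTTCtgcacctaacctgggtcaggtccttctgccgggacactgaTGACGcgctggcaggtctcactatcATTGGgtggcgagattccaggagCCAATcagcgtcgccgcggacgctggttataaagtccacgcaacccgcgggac
B2m, chr2:122147487-122147686, plus strand: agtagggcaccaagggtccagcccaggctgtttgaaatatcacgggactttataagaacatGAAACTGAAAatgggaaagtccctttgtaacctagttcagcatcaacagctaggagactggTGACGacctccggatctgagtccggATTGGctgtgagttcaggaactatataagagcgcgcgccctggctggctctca
The motifs, searched on both strands over the 250 bases before the start, were the Y box CCAAT, the X2 box TGACG, the core of the interferon-stimulated response element (GAAA, any 2 bases, GAAA) and the gamma-activated site TTCNNNGAA. Promoters of 7 of the 10 members were searched, and those of Cd74, H2-Ab1 and Ciita were not. The Y box was found in 6 of the 7 searched (33.8% of all 32851 promoters) and the X2 box in 5 (17.8%). In B2m, H2-D1 and H2-Aa, TGACG lay close upstream of a CCAAT read on the opposite strand, as it did in H2-K1, and H2-Eb1 held CCAAT but no TGACG. Tap1 had the reverse order, with CCAAT 222 to 218 bases before the start and TGACG 86 to 82 bases before it. The core of the response element was found only in B2m among the 7 members (2.98% of all promoters), and TTCNNNGAA only in Psmb8 (7.02%). Reading the sequences led to 2 more motifs, which were therefore chosen after the letters were seen. The shorter interferon element GAANNGAAA was found in H2-K1 and H2-D1 (6.31% of all promoters), as was the NF-kB element GGGGATTCC (0.213%). The 2 TGACG matches of H2-Aa, 1 on each strand, overlap. A match describes the letters only.

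In WT muscle B2m, the class I heavy chains and Cd74 were the most abundant of the 10 genes. Per kilobase of exon, B2m was highest in cohort G (129 ± 29.2 CPM per kb, SD, n = 4), followed by H2-D1 (27.4 ± 5.65), Cd74 (26.2 ± 7.06) and H2-K1 (19.6 ± 2.75). The class II chains came next, with H2-Eb1 at 7.41 ± 2.06, H2-Ab1 at 5.8 ± 1.55 and H2-Aa at 4.92 ± 1.43 CPM per kb. Psmb8 and Tap1 followed, and Ciita was the lowest at 0.0592 ± 0.0402 CPM per kb. H2-D1 and Cd74 lay within their spread of each other and changed order between WT mice. The chains H2-Eb1, H2-Ab1 and H2-Aa kept this order in each WT mouse of cohort G. WT mice of cohort F gave the same order, from 118 ± 14.2 CPM per kb for B2m to 0.076 ± 0.00583 for Ciita. Exon lengths were those of all annotated transcripts together, retained introns included, which lowers the level per kb of such genes. H2-Eb1 has no functional partner in this strain, since the alpha chain gene of I-E is defective in C57BL mice. That gene, H2-Ea-ps, which is named after its values were seen, had no read in 6 of the 7 groups and 1 read in 1 disease mouse of cohort G.

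**Figure D1:**
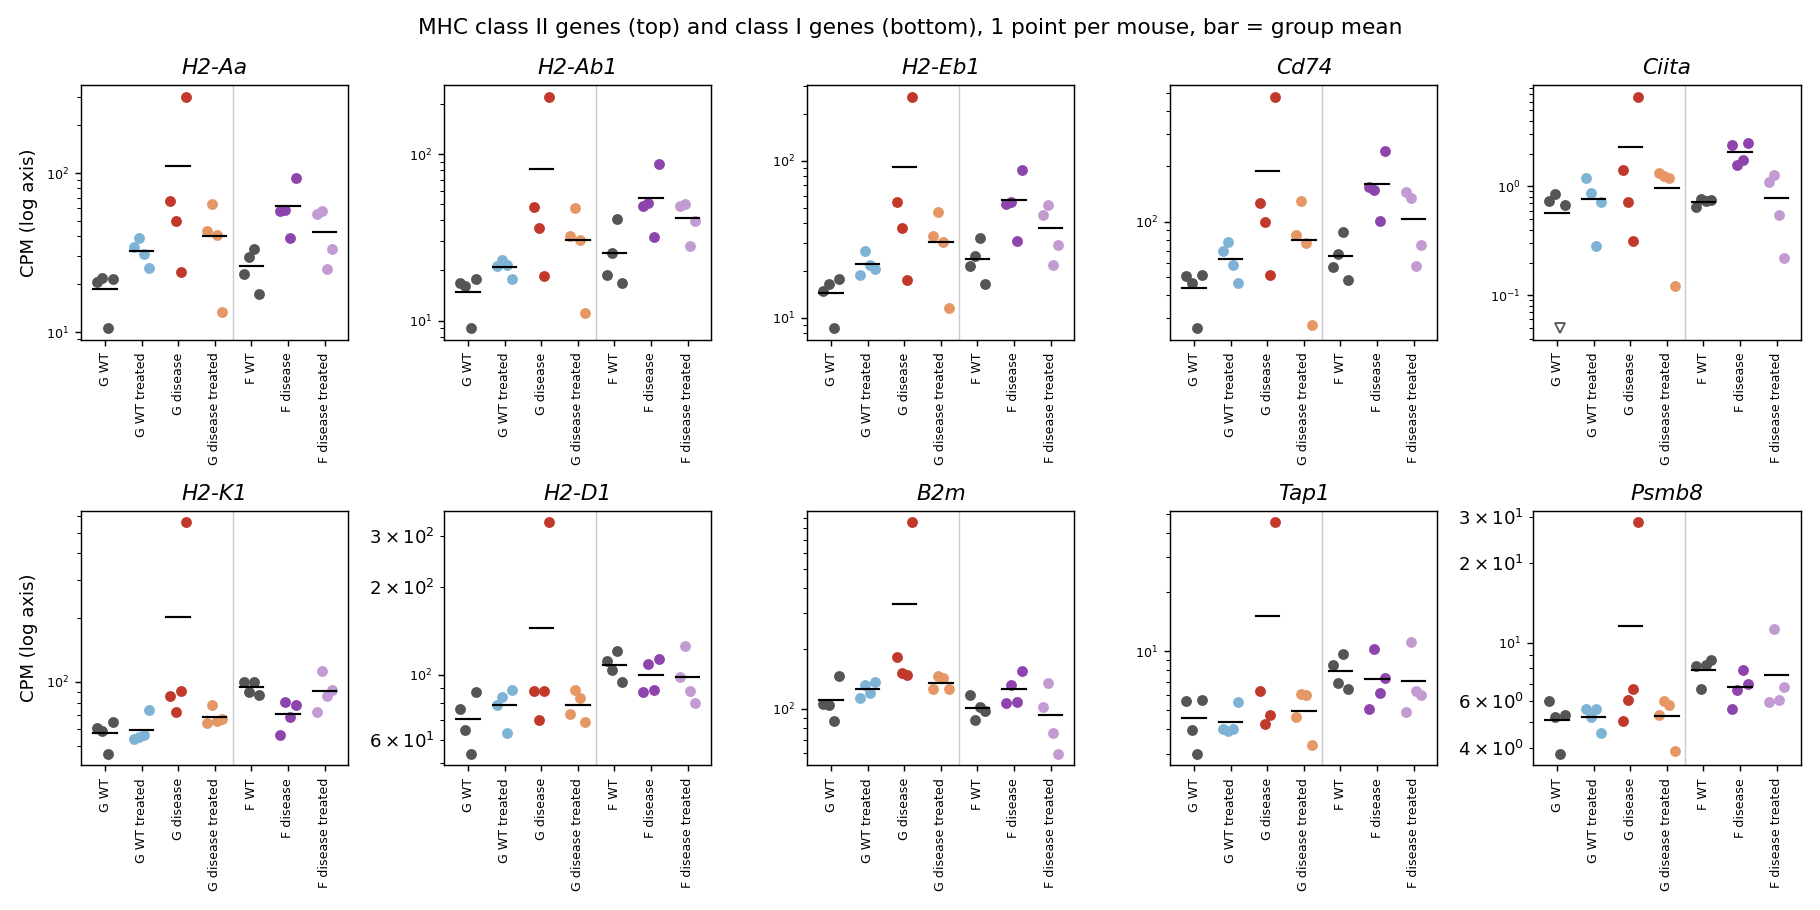
CPM of the 10 genes on log axes, with 1 point for each mouse, a bar for the arithmetic mean of each group of 4, and an open triangle for a mouse with no read. Disease mouse 4 of cohort G is the highest point of that group in every panel, and in cohort F the class II genes are high in disease mice while the class I genes are not.

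In the Dnm2 S619L/+ mice of cohort G, 6 of the 10 genes were higher than in WT by edgeR's quasi-likelihood test (Benjamini-Hochberg adjusted p under 0.05), where 12.1% of the 15439 genes tested were called higher. None was lower. They were the 3 class II chains, Cd74, H2-K1 and B2m. At an unadjusted p under 0.05 all 10 were higher, against 19.9% of all genes. The median log2 fold change (below, log2 change) was 2.43 for the 5 class II genes and 1.59 for the 5 class I genes, beside 0.02 over all genes tested. Within the disease group the 4 mice spread widely, from near the WT level to far above it.

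H2-Aa, the I-A alpha chain, stood at 20.6, 22, 10.6 and 21.5 CPM in WT mice 1 to 4 and at 67.2, 49.7, 23.9 and 303 CPM in disease mice 1 to 4. The groups did not overlap, disease mouse 3 was close to WT, and disease mouse 4 was far above the others. The log2 change was 2.55 (SE 0.63, edgeR adjusted p = 0.0111). H2-Ab1, the beta chain of the same molecule, was at 16.8, 16.2, 9.01 and 17.7 CPM in WT and at 48.2, 36.2, 18.4 and 222 CPM in disease mice. It had the same order of disease mice and rose with a log2 change of 2.43 (SE 0.61, edgeR adjusted p = 0.0122).

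H2-Eb1, the I-E beta chain, was at 14.9, 16.5, 8.62 and 17.6 CPM in WT and at 54.7, 37.6, 17.5 and 257 CPM in disease mice. Here disease mouse 3 fell just inside the WT range, and the log2 change was 2.65 (SE 0.64, edgeR adjusted p = 0.00991). Cd74, whose product chaperones all class II chains, was at 51.1, 46.4, 26.6 and 51.9 CPM in WT and at 127, 99.3, 51.5 and 478 CPM in disease mice. It rose with a log2 change of 2.10 (SE 0.57, edgeR adjusted p = 0.0175), again with disease mouse 3 inside the WT range. Ciita was the least certain class II gene, with 0.74, 0.849, 0 and 0.67 CPM in WT and 1.4, 0.72, 0.317 and 6.69 CPM in disease mice. The groups overlapped, and its log2 change of 1.79 missed the threshold (SE 0.80, edgeR adjusted p = 0.12). WT mouse 3, which had no read of Ciita, was the lowest WT mouse for all 10 genes and had the smallest library of the cohort.

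Among the class I genes, H2-K1 was at 60.6, 58.6, 46 and 64.8 CPM in WT and at 85.8, 72.3, 90.6 and 560 CPM in disease mice. Every disease mouse was above every WT mouse (log2 change 1.81 with SE 0.51, edgeR adjusted p = 0.0204). B2m behaved alike, with 106, 105, 86.8 and 146 CPM in WT and 182, 152, 148 and 856 CPM in disease mice (log2 change 1.59 with SE 0.45, edgeR adjusted p = 0.0205). Disease mice 2 and 3 were only just above the highest WT mouse. In all, 4 of the 10 genes had disease mice that were all above WT, which 14.3% of the genes tested also showed. The heavy chain H2-D1 overlapped between groups, at 53.7 to 87.3 CPM in WT and 70 to 333 CPM in disease mice, and did not pass by edgeR (log2 change 1.03 with SE 0.38, edgeR adjusted p = 0.0632). Tap1 was at 3 to 5.63 CPM in WT and at 6.24, 4.27, 4.75 and 45.3 CPM in disease mice (log2 change 1.70 with SE 0.60, edgeR adjusted p = 0.055), and Psmb8 was at 3.79 to 6.01 CPM in WT and 5.03 to 28.6 CPM in disease mice (log2 change 1.16 with SE 0.43, edgeR adjusted p = 0.0646).

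**Figure D2:**
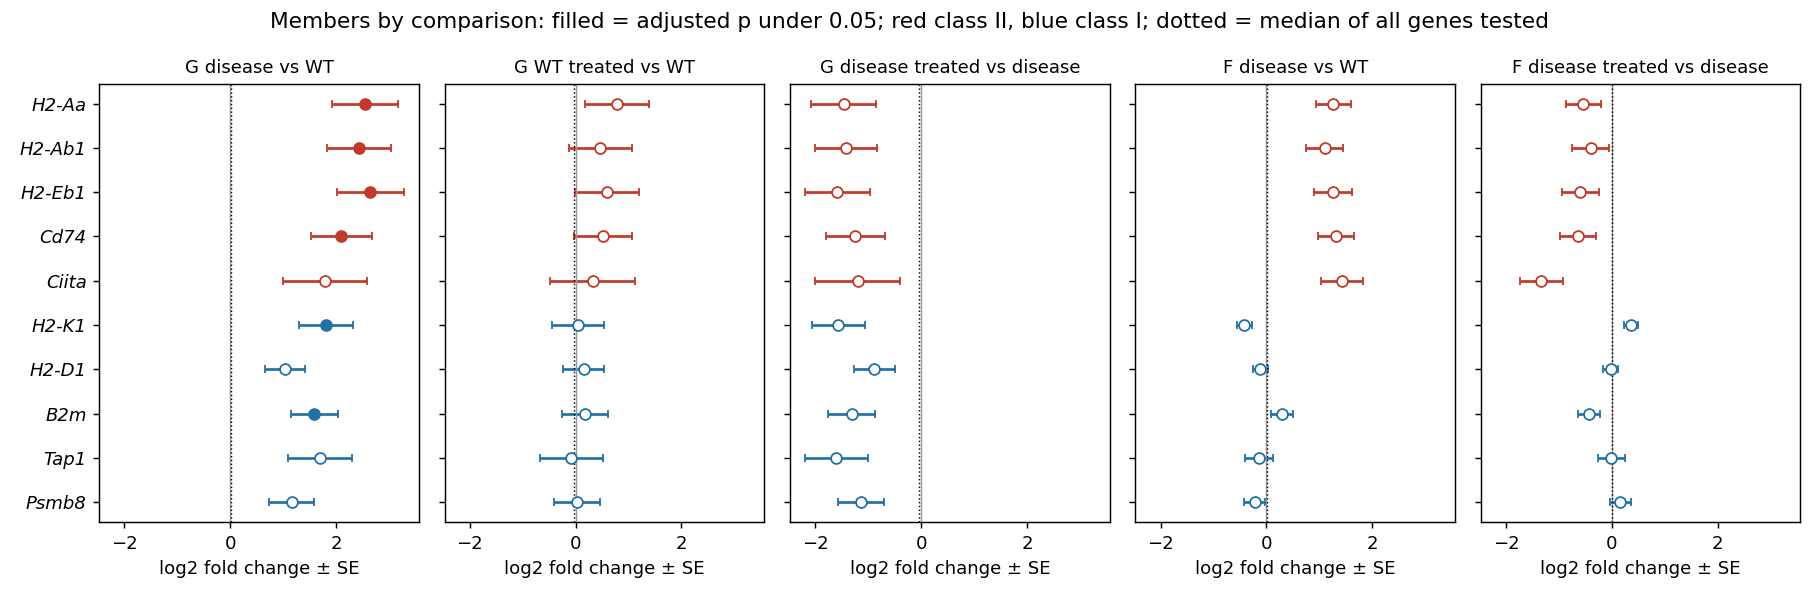
Log2 change and standard error of the 10 genes in 5 comparisons, red for class II and blue for class I, filled where edgeR's adjusted p was under 0.05. Filled points appear in the disease comparison of cohort G alone, and in cohort F the class II genes lie between 1.1 and 1.43 while the class I genes lie between -0.42 and 0.30.

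Disease mouse 4 set much of these sizes. Without it, 3 of the 10 genes were called higher (8.7% of all genes tested), namely H2-Eb1, H2-K1 and B2m. H2-Eb1 then had a log2 change of 1.33 (SE 0.41, edgeR adjusted p = 0.0436), H2-K1 one of 0.53 (SE 0.14, edgeR adjusted p = 0.019) and B2m one of 0.53 (SE 0.15, edgeR adjusted p = 0.025). The class II genes H2-Aa, H2-Ab1 and Cd74 kept values of 1.32, 1.19 and 1.07 and no longer passed, with edgeR adjusted p of 0.0528, 0.0566 and 0.0981. Tap1 then had 0.15, Psmb8 0.19, H2-D1 0.21 and Ciita 0.41, none of which passed. Relative to the WT mean, disease mouse 4 thus had about 17.8 times the level of H2-Eb1 and 9.98 times that of Tap1, while the median disease mouse had 3.2 and 1.21 times. Without WT mouse 3, the lowest one, the 3 class II chains were called (8.86% of all genes were higher), and with the WT and disease mice fitted alone none was (11.0% of all genes), with 6 at an unadjusted p under 0.05. DESeq2 called 5 genes higher (14.2% of all genes), the 3 class II chains, Cd74 and H2-D1 (DESeq2 adjusted p = 0.0254 for H2-D1). It gave no adjusted p for H2-K1, B2m, Tap1 and Psmb8.

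**Figure D3:**
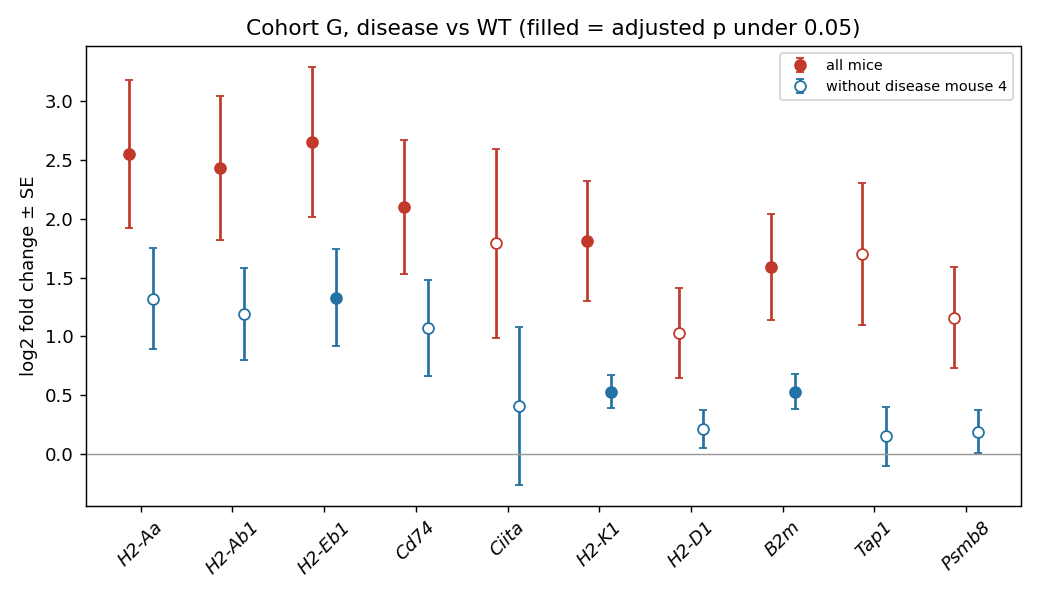
Log2 change and standard error of each gene for disease against WT mice in cohort G, with all mice (red) and without disease mouse 4 (blue), filled where edgeR's adjusted p was under 0.05. The class II chains and Cd74 stay above 1 without the mouse, and Tap1, Psmb8 and H2-D1 come close to 0.

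Mouse 4 also differed from the other disease mice in transcripts of immune cells and of the interferon gamma response. The 10 markers of T and NK cells summed to 31.9 CPM in it, compared with 1.06 to 2.5 CPM in disease mice 1 to 3 and 0.0791 to 1.29 CPM in WT, and Cd3e, a chain of the T cell receptor complex, stood at 3.88 CPM against 0.0453 to 0.135. Dendritic cell markers summed to 49.5 CPM against 13.3 to 18.6, and macrophage markers to 266 CPM against 87.1 to 182. B cell markers summed to 382 CPM against 12.6 to 61. Interferon gamma itself, Ifng, had reads in no mouse but this one (0.237 CPM). Igtp, an interferon-inducible GTPase, was at 217 CPM in mouse 4, at 11.5 to 13.2 CPM in the other disease mice and at 4.9 to 6.45 CPM in WT. Nlrc5, the class I transactivator, followed with 26.5 CPM, where disease mice 1 to 3 had 1.1 to 3.4 CPM. The part of these cells and of this response in the members' levels was not tested.

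**Figure D4:**
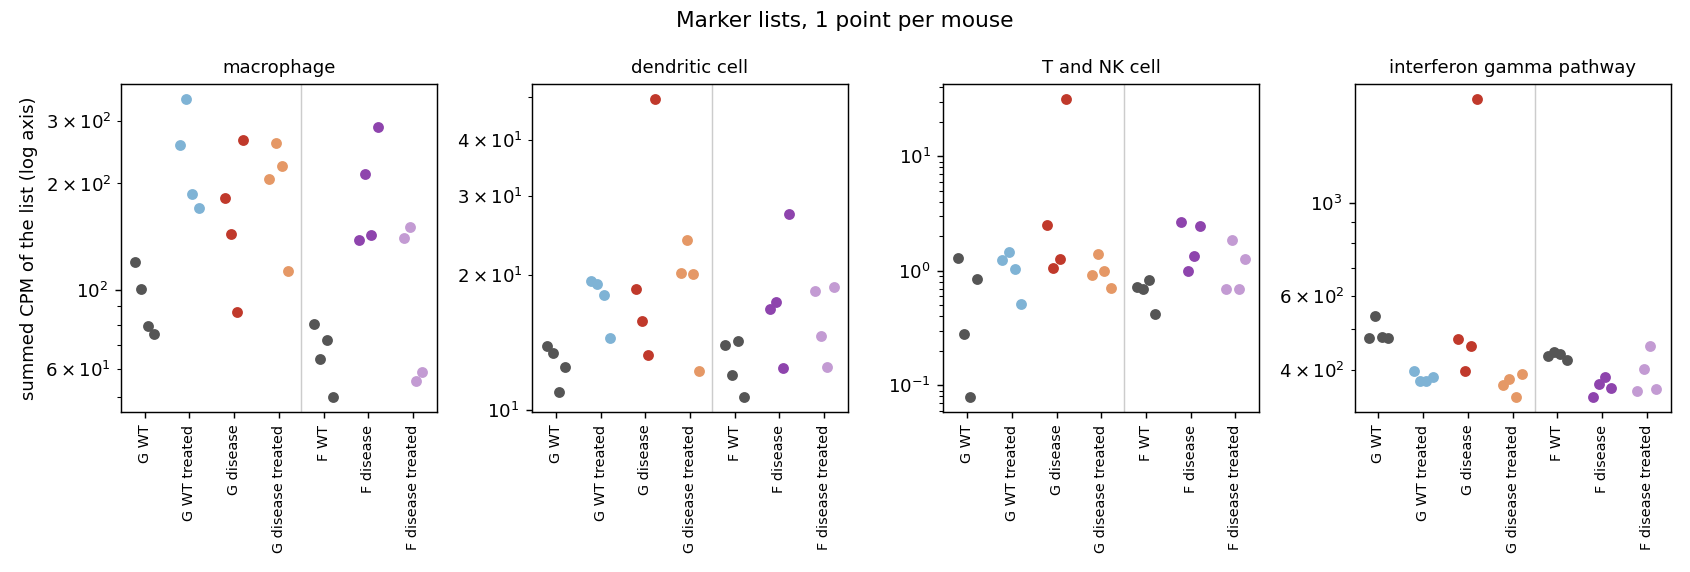
Summed CPM of 3 marker lists and of the interferon gamma pathway genes, on log axes, with 1 point for each mouse. Disease mouse 4 of cohort G is the highest mouse for dendritic cell, T and NK cell and interferon gamma genes, and macrophage markers are also high in WT treated mice of cohort G and in disease mice of cohort F.

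Other genes of the routes were counted from fixed lists. Of 7 tested genes that load class II or process its peptides, 5 were higher in disease mice of cohort G and none lower. The smallest p was that of Lgmn, a lysosomal protease, at 36.3 to 44.2 CPM in WT and 64.7 to 99.2 CPM in disease mice (log2 change 1.05 with SE 0.13, edgeR adjusted p = 6.9e-05). H2-DMa, a chain of the peptide exchanger, had a log2 change of 1.80 (SE 0.46, edgeR adjusted p = 0.0132), and H2-DMb2 one of 2.24 (SE 0.60, edgeR adjusted p = 0.0156). Without mouse 4, 2 of the 7 were called. Of 7 general factors of class II promoters, Rfx5 was higher (0.47) and Creb1 and Nfyb were lower (-0.38 and -0.42).

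On the class I side, 1 of 7 loading genes was called, the bridging factor Tapbp (log2 change 0.74 with SE 0.24, edgeR adjusted p = 0.0398), while Tap2 and Tapbpl had 0.70 and 0.71 and did not pass. Among 4 other immunoproteasome genes Psmb10 rose (1.27, SE 0.35, edgeR adjusted p = 0.0201), whereas Psmb9, which shares a promoter with Tap1, and Psme2 did not pass at 1.63 and 0.68. None of the 3 constitutive subunits that the immunoproteasome replaces was called by edgeR, with 1 at an unadjusted p under 0.05 (Psmb5, log2 change 0.43, edgeR adjusted p = 0.0532) and 1 called by DESeq2. Of 12 tested class Ib and class I-like genes 4 rose, among them H2-Q7, Fcgrt and H2-T23 with 2.29, 0.51 and 1.26. The interferon gamma list had 6 genes higher and 2 lower of 16, led by Jak2, which fell by 0.96 on the log2 scale, Igtp (3.40) and Irgm2 (2.77). Of 12 genes of the type I interferon response only Ifi27 passed (0.77). Of 7 genes of co-stimulation and recognition, Cd80 and Cd86, ligands that T cells need beside the peptide, rose with 2.66 and 1.47. All these values include disease mouse 4. The co-stimulation list summed to 70.5 CPM in mouse 4, at most 16.4 CPM in disease mice 1 to 3 and 8.22 to 14.3 CPM in WT. The immunoproteasome list summed to 141, at most 56.7 and 44.7 to 49.7 CPM in this order. The class Ib and class I-like list summed to 249, 154 to 167 and 120 to 134 CPM. Log2 changes of single genes without mouse 4 are not given for these lists. Without mouse 4, 1 gene of the interferon gamma list was still called higher.

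In the same comparison 4 of 12 macrophage markers, 3 of 9 dendritic cell markers, 1 of 4 B cell markers and both tested T and NK cell markers were called higher, and without mouse 4 edgeR called none of these 4 lists' markers, with 6, 2, 1 and 1 at an unadjusted p under 0.05. Endothelial markers went the other way, with 7 of 8 lower, and 6 of 8 without mouse 4. Summed endothelial markers were 572 to 873 CPM in WT and 217 to 550 CPM in disease mice. Fibroblast markers summed to 910 to 1260 CPM in WT and 1600 to 2290 CPM in disease mice, where edgeR called none of 7 and DESeq2 called 3, with 3 at an unadjusted p under 0.05 by edgeR. The part of all these cells in the members' levels was not tested.

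In the Bin1 mck-/- mice of cohort F the class II genes were high in disease mice while the class I genes were near or below WT. By edgeR none of the 10 passed the threshold, where 2.61% of the 14841 genes tested were called. At an unadjusted p under 0.05, 5 genes were higher (11.4% of all genes), which were the 5 class II genes, and 1 was lower (8.78%), H2-K1. DESeq2 called 5 genes higher, the same class II genes (5.2% of all genes). The median log2 change was 1.26 for class II and -0.14 for class I, beside 0.01 over all genes.

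Ciita had the clearest separation, with 0.643, 0.766, 0.736 and 0.753 CPM in WT mice 5 to 8 and 2.4, 1.58, 1.74 and 2.53 CPM in disease mice 1 to 4. All disease mice were at least 1.58 CPM and no WT mouse was above 0.766 (log2 change 1.43 with SE 0.40, edgeR adjusted p = 0.0655, DESeq2 adjusted p = 0.00944). Cd74 was at 56.9, 67.2, 87.8 and 48.4 CPM in WT and 155, 148, 101 and 241 CPM in disease mice. Again the groups did not overlap (log2 change 1.31 with SE 0.34, edgeR adjusted p = 0.0645, DESeq2 adjusted p = 0.000669).

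H2-Aa was at 23.1, 29.8, 33.5 and 17.4 CPM in WT and 57.4, 58.6, 39.1 and 93.7 CPM in disease mice, without overlap (log2 change 1.26 with SE 0.33, edgeR adjusted p = 0.0676, DESeq2 adjusted p = 0.00101). Its partner H2-Ab1 was at 18.8, 25.5, 40.9 and 16.8 CPM in WT and 48.8, 50.8, 31.6 and 87.8 CPM in disease mice. There disease mouse 3 fell below WT mouse 7, and the log2 change was 1.1 (SE 0.35, edgeR adjusted p = 0.116, DESeq2 adjusted p = 0.00852). H2-Eb1 overlapped through the same 2 mice, with 16.5 to 32.5 CPM in WT and 31 to 87.9 CPM in disease mice (log2 change 1.25 with SE 0.36, edgeR adjusted p = 0.0875, DESeq2 adjusted p = 0.0023). Disease mouse 4 was the highest for all 5 class II genes, at 93.7 CPM of H2-Aa against 58.6 CPM in the next mouse. Without disease mouse 3, the lowest, 3 genes were called higher by edgeR, H2-Aa, H2-Eb1 and Cd74 (1.42, 1.44 and 1.47, with 3.31% of all genes higher). Without disease mouse 4 none was called (0.332% of all genes were higher), with 6 at an unadjusted p under 0.05, and the values of H2-Aa, H2-Ab1 and H2-Eb1 were 0.99, 0.77 and 0.94.

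In 3 of the 10 genes all disease mice were above WT (9.09% of the genes tested) and in 1 all were below (7.46%). That 1 was H2-K1, at 100, 90.1, 100 and 87.2 CPM in WT and 56.2, 80.2, 68.5 and 77.8 CPM in disease mice. Its log2 change was -0.42 (SE 0.14, edgeR adjusted p = 0.109, DESeq2 adjusted p = 0.0582), opposite in sign to that in cohort G. H2-D1, which shares sequence with H2-K1, was at 94.9 to 121 CPM in WT and 87.7 to 113 CPM in disease mice (log2 change -0.12, SE 0.14). B2m was at 118, 88.3, 102 and 97.8 CPM in WT and 107, 132, 108 and 155 CPM in disease mice, a log2 change of 0.30 (SE 0.21, edgeR adjusted p = 0.456). Tap1 and Psmb8 overlapped between the groups, with log2 changes of -0.14 (SE 0.26) and -0.22 (SE 0.20). With WT and disease mice fitted alone, 4 genes were called (10.1% of all genes), H2-Aa, Cd74 and Ciita as higher and H2-K1 as lower.

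Of the 7 genes of class II loading, Lgmn passed in cohort F (log2 change 0.92 with SE 0.16, edgeR adjusted p = 0.0136), and H2-DMb1 and the protease Ctss missed the threshold with 1.37 and 1.82 (edgeR adjusted p of 0.0503 and 0.0588). No gene of class II transcription, class I loading, the immunoproteasome or class I transcription was called by edgeR, and 1, 2, 0 and 0 genes of these lists had an unadjusted p under 0.05. DESeq2 called 1, 1, 0 and 0. The smallest p in these lists were those of Rfxap (-0.45), Pdia3 (0.77), Psme1 (0.13) and Irf8 (-0.41). Of 15 genes of the interferon gamma pathway Jak2 was lower, by 0.69 on the log2 scale (SE 0.14, edgeR adjusted p = 0.0201), and none was higher. The summed level of that list was 344 to 384 CPM in disease and 422 to 440 CPM in WT mice, and Ifng had no read in any mouse of the cohort.

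Macrophage and fibroblast markers moved with the class II genes in cohort F. Of 12 macrophage markers, 4 were called higher and 10 had a higher level at an unadjusted p under 0.05, and their sum was 50 to 80.1 CPM in WT and 139 to 288 CPM in disease mice. Adgre1, the F4/80 antigen, had a log2 change of 2.14 (SE 0.38, edgeR adjusted p = 0.0147), and Cd68 one of 2.58 (SE 0.50, edgeR adjusted p = 0.0289). None of 7 dendritic cell markers was called by edgeR and 1 by DESeq2, with 2 at an unadjusted p under 0.05, and their sum was 10.7 to 14.3 CPM in WT and 12.4 to 27.4 CPM in disease mice. B cell markers summed to 20.9 to 51 CPM in WT and 11.5 to 31.6 CPM in disease mice, and T and NK cell markers to at most 0.832 CPM in WT and 0.998 to 2.69 CPM in disease mice, with Cd3e at 0.0644 CPM or less in every disease mouse. All 7 fibroblast markers were higher without overlap, 5 of them at an unadjusted p under 0.05 and 1 by the adjusted p, with sums of 1700 to 4170 CPM in disease and 786 to 1020 CPM in WT mice. Of 7 myofiber and 8 endothelial markers, 3 each were lower without overlap, and 1 and 0 were called by edgeR, 2 and 0 by DESeq2, with 3 and 3 at an unadjusted p under 0.05. The part of all these cells in the members' levels was not tested.

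**Figure D5:**
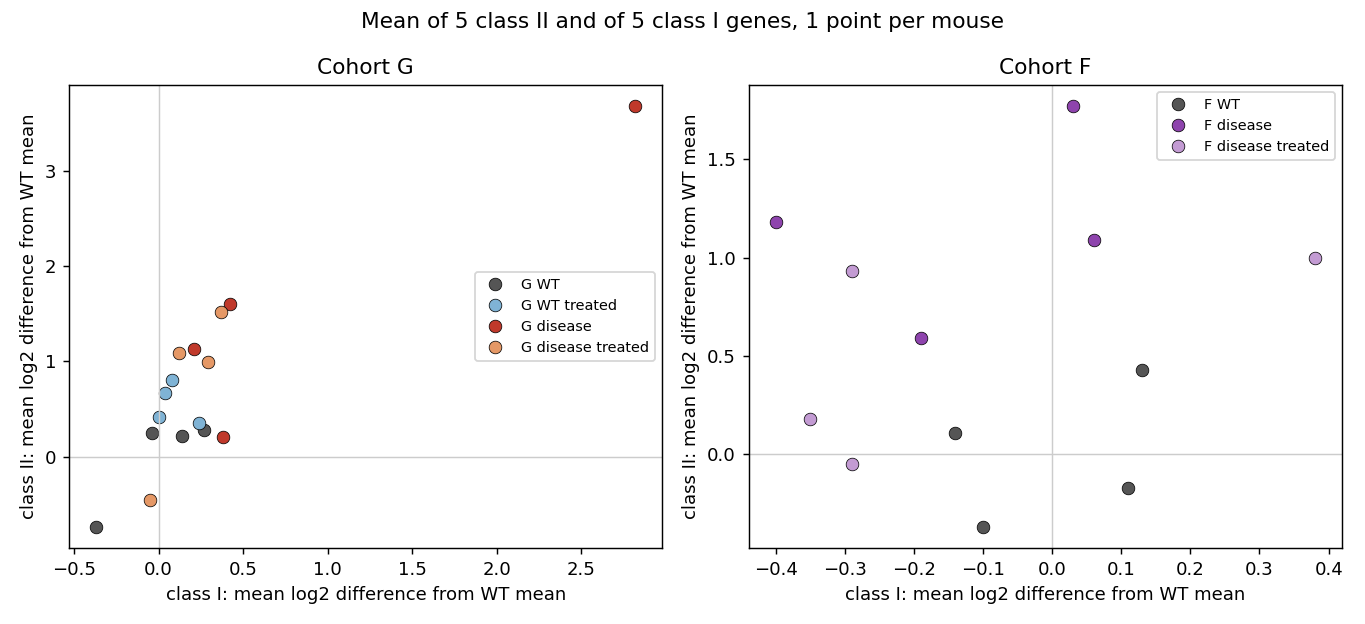
Mean log2 difference from the WT mean over the 5 class I genes (horizontal axis) and the 5 class II genes (vertical axis), with 1 point for each mouse, a pseudocount of 0.5 CPM and cohorts in separate panels. In cohort F the disease mice lie at 0.59 to 1.77 for class II and -0.40 to 0.06 for class I, and in cohort G disease mouse 4 lies at 3.68 and 2.82.

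Averaged over the 5 genes of a class, the log2 difference from WT describes each mouse in 2 values. Disease mice 1 to 4 of cohort G had class II values of 1.60, 1.13, 0.21 and 3.68 and class I values of 0.42, 0.21, 0.38 and 2.82. Mice 1 and 2 were therefore raised mainly in class II, mouse 3 in neither by much, and mouse 4 in both. The 4 disease mice of cohort F had class II values of 1.18, 1.09, 0.59 and 1.77 beside class I values of -0.40, 0.06, -0.19 and 0.03. Their highest class I value was thus far below that of mouse 4 of cohort G.

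For tamoxifen in WT mice of cohort G, none of the 10 genes was called by edgeR, where 27.7% of all genes were, and none had an unadjusted p under 0.05 (40.3% of all genes). DESeq2 called none either (31.8% of all genes), with no adjusted p for the 4 genes named above. H2-Aa was at 34.5, 39, 31.1 and 25.2 CPM in WT treated mice, all above the WT mice (log2 change 0.78 with SE 0.61, edgeR adjusted p = 0.356). The same held for H2-Eb1, at 18.9 to 26.5 CPM, and for H2-Ab1, whose groups met at 17.7 CPM after rounding, so 3 genes did not overlap (17.6% of all genes were higher without overlap). When WT and WT treated mice were fitted alone, H2-Aa and H2-Eb1 passed with 0.81 (SE 0.22, edgeR adjusted p = 0.0201) and 0.62 (SE 0.20, edgeR adjusted p = 0.0411), in a fit that called 28.7% of all genes, 17.6% as higher. The class I genes had log2 changes from -0.08 to 0.18. Macrophage markers were higher at the same time, 8 of 12 by the test, with sums of 171 to 347 CPM against 75.2 to 120 CPM. Osteoclast and osteoblast markers rose as well, 7 of 7 and 7 of 8, as did 5 of 7 fibroblast markers, with sums of 9110 to 17800 CPM against 910 to 1260 CPM in WT. The part of all these cells was not tested.

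Of the lists of the pathway, class II loading had 2 of 7 genes higher in WT treated mice, Lgmn (log2 change 0.70 with SE 0.12, edgeR adjusted p = 0.00108) and Ctss (2.16, SE 0.64, edgeR adjusted p = 0.0208), while class I loading had Pdia3 (1.01, SE 0.23, edgeR adjusted p = 0.00455). The interferon gamma list had 1 gene higher, the inhibitor Socs1 (1.92), and 3 lower, led by Jak2 and Jak1 (-0.75 and -0.46). No immunoproteasome gene was called by edgeR or DESeq2, and none had an unadjusted p under 0.05.

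Tamoxifen in disease mice of cohort G was compared with placebo to see how the raised levels differed. None of the 10 genes was called by edgeR (8.27% of all genes were) or by DESeq2 (12.2%), which again gave no adjusted p for 4 of them. All 10 log2 changes were below 0, and 9 were lower at an unadjusted p under 0.05 (12.9% of all genes), all but Ciita. Xist was above 10 CPM in 2 of 4 disease and all 4 disease treated mice, so it differed along with treatment. With Xist as a covariate edgeR again called 0 of the 10 genes (3.22% of all genes), with 9 at an unadjusted p under 0.05. H2-K1 was at 64.1, 78.1, 65.7 and 67.2 CPM in disease treated mice, a log2 change of -1.56 from disease mice (SE 0.50, edgeR adjusted p = 0.0697). B2m was at 126, 146, 143 and 126 CPM, below every disease mouse, and was the 1 gene of 10 without overlap (6.37% of all genes were lower without overlap). Its log2 change was -1.31 (SE 0.44, edgeR adjusted p = 0.0818).

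The class II chains overlapped between disease and disease treated mice. H2-Aa was at 43.4, 63.5, 41 and 13.4 CPM in disease treated mice, of which the last was below the WT median of 21.1 CPM, and its log2 change was -1.46 (SE 0.61, edgeR adjusted p = 0.148). H2-Ab1, H2-Eb1 and Cd74 had -1.42, -1.58 and -1.24 (edgeR adjusted p of 0.146, 0.125 and 0.176), and disease treated mouse 4 was the lowest for all 5 class II genes. Ciita was at 1.32, 1.24, 1.2 and 0.123 CPM. These differences rested on disease mouse 4, since without it none of the 10 genes had an unadjusted p under 0.05, while without any 1 of the other disease mice H2-K1 was called (-1.83 to -1.80, edgeR adjusted p of 0.043 to 0.0484), and B2m as well without mouse 3 (-1.55, edgeR adjusted p = 0.0442). Of all genes, 2.51%, 0.995% and 3.49% were lower without mouse 1, 2 and 3. For Ciita the log2 change turned from -1.20 to 0.17 without mouse 4. Disease treated mouse 4, the lowest for the class II genes, also had lower marker sums than disease treated mice 1 to 3. Macrophage markers summed to 113 against 206 to 260 CPM, and osteoclast markers to 24.6 against 250 to 727 CPM. Osteoblast markers summed to 49.1 against 198 to 572 CPM, and fibroblast markers to 2020 against 6690 to 13700 CPM. The part of these cells was not tested.

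The difference between the tamoxifen effect in disease and in WT mice was tested as an interaction. None of the 10 genes was called by edgeR (0.259% of all genes) or DESeq2 (2.12%), which gave no adjusted p for H2-K1, B2m, Tap1 and Psmb8. By edgeR 6 interactions were below 0 at an unadjusted p under 0.05 (8.41%). The largest was that of H2-Aa, -2.24 on the log2 scale (SE 0.86, edgeR adjusted p = 0.286), and without disease mouse 4 only 1 gene had an unadjusted p under 0.05. Against WT, disease treated mice of cohort G had none of the 10 genes called by edgeR (28.9% of all genes) or DESeq2 (32.5%). DESeq2 gave no adjusted p for the same 4 genes. These mice had none at an unadjusted p under 0.05 by edgeR (40.8%), or 4 when disease mouse 4 was left out of the fit. Their class II log2 changes were 0.59 to 1.09, led by H2-Aa (1.09, SE 0.61, edgeR adjusted p = 0.19), and their class I values were 0.03 to 0.28.

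Among other genes of the pathway, 5 of 16 interferon gamma genes were lower in disease treated than in disease mice of cohort G, led by the receptor chain Ifngr2 (log2 change -0.39 with SE 0.09, edgeR adjusted p = 0.0158), Igtp (-3.26) and Iigp1 (-4.47). Without disease mouse 4, 2 of the list were called. Psmb10 was the 1 immunoproteasome gene that passed (-1.27, SE 0.35, edgeR adjusted p = 0.0405), and Hfe the 1 class I-like gene (-0.42, SE 0.10, edgeR adjusted p = 0.018). The immunoproteasome list summed to 42.4 to 45.6 CPM in disease treated mice and to 46.7, 56.7, 51.5 and 141 CPM in disease mice 1 to 4. No gene of class II loading was called by edgeR and 2 were by DESeq2, and 2 were lower at an unadjusted p under 0.05, H2-DMb2 and H2-DMa with -1.98 and -1.25. No macrophage marker was called lower, and their sum was 113 to 260 CPM in disease treated and 87.1 to 266 CPM in disease mice, with 1 of 12 called higher. Osteoblast markers were higher in 7 of 8 and osteoclast markers in 5 of 7 genes, as were 3 of 7 fibroblast markers, and the part of these cells was not tested.

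In cohort F, tamoxifen was compared with placebo in disease mice. None of the 10 genes was called by edgeR (3.13% of all genes), and 2 had an unadjusted p under 0.05 (20.7%). Ciita was lower, at 1.09, 1.27, 0.543 and 0.219 CPM in disease treated mice, each below every disease mouse. It was the 1 gene of 10 that was lower without overlap (5.11% of all genes), with a log2 change of -1.33 (SE 0.41, edgeR adjusted p = 0.0843). DESeq2 called this gene alone (8.24% of all genes, DESeq2 adjusted p = 0.02). H2-K1 had the other small p and was higher, at 72.6, 112, 85.9 and 91.7 CPM (log2 change 0.36 with SE 0.14, edgeR adjusted p = 0.155).

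The class II chains and Cd74 had log2 changes of -0.40 to -0.64 and overlapped with disease mice. H2-Aa was at 55, 58.1, 24.9 and 33.5 CPM and Cd74 at 145, 135, 57.5 and 75.1 CPM in disease treated mice. Mice 1 and 2 thus stayed near disease mice while mice 3 and 4 were at the WT level, in both genes. Macrophage markers split in the same way, with sums of 140, 151, 55.6 and 58.7 CPM in mice 1 to 4, and 7 of 12 were lower than in disease mice at an unadjusted p under 0.05, of which Lyve1 was called. Dendritic cell and B cell markers did not split in this way. Their sums were 18.4, 14.6, 12.5 and 18.8 CPM for dendritic cells and 28.5, 12.6, 23.9 and 11.5 CPM for B cells. Fibroblast markers summed to 1660, 5810, 991 and 267 CPM in these mice. Osteoclast markers summed to 17.8, 182, 9.39 and 5.63 CPM in them, and osteoblast markers to 25.4, 310, 19.5 and 20.4 CPM. The part of these cells was not tested. B2m had a log2 change of -0.43 (SE 0.21, edgeR adjusted p = 0.269), and without disease treated mouse 2 both Ciita and B2m were called, with -1.66 (edgeR adjusted p = 0.0283) and -0.66 (edgeR adjusted p = 0.0335), where 4.39% of all genes were lower.

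Between disease treated and WT mice of cohort F none of the 10 genes was called by edgeR (0.849% of all genes) or DESeq2 (3.67%), and none had an unadjusted p under 0.05 by edgeR (14.9%). Ciita had a log2 change of 0.11 (SE 0.40), while H2-Aa had 0.72 (SE 0.33, edgeR adjusted p = 0.338). The comparisons of a cohort share mice, so their values are given side by side only. In the pathway lists, no gene of class II loading, the immunoproteasome or the interferon gamma pathway was called by edgeR between disease treated and disease mice of cohort F, while DESeq2 called 1, 0 and 1 and 2, 0 and 1 had an unadjusted p under 0.05 by edgeR. Lgmn (-0.53) and Jak2 (0.49) had the smallest p.

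The class II partners kept steadier proportions than their levels did. Per kb, H2-Aa stood to H2-Ab1 at 0.554 to 1.14 over all 28 mice, and Cd74 to H2-Aa at 3.57 to 6.31, while H2-Aa itself ran from 10.6 to 303 CPM. H2-K1 to H2-D1 ran from 0.562 to 1.48, and disease mice of cohort G were at 0.856 to 1.48 against 0.651 to 0.795 in their WT, without overlap, while those of cohort F were at 0.562 to 0.678 against 0.729 to 0.807. The light chain moved apart from its heavy chains in cohort F, where B2m to the sum of H2-K1 and H2-D1 per kb was 2.18 to 2.56 in disease, 1.44 to 1.76 in WT and 1.12 to 1.88 in disease treated mice. These ratios were chosen after the levels were seen and carry no test. Reads of H2-K1, H2-D1 and the class Ib genes can be alike in sequence, and 15.4% to 20.2% of all counts in cohort F lay in the line for reads that map to several places, so part of the reads of these genes may be missing or shared.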

How the data were processed

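The authors deposited 1 table of raw read counts per Ensembl gene for each cohort, 1 column per mouse. The submitters' processing notes list bcl2fastq 2.20.0.422, cutadapt 1.10, Bowtie 1.2.2, STAR 2.5.3, HTSeq 0.6.1p1 and build mm39, without their roles. In cohort F, 4 lines without a gene (median 23.9% of counts) were left out. Symbols matched 52083 IDs. Each cohort was fitted once with all its groups in edgeR 4.0.16 (TMM, filterByExpr, robust quasi-likelihood F test, prior count of 2) under R 4.3.3, with Benjamini-Hochberg adjustment over all genes tested and a threshold of 0.05. SE is the log2 fold change divided by the square root of F. DESeq2 1.42.0 was an alternative, with other filters, RLE scaling, thinned libraries, Xist as a covariate, a replicate block, fits of the groups compared, and each mouse left out. Scripts were tested on simulated data. The 10 members and all lists were chosen with earlier results of these data known. Beside the members, up to 3 genes of a list with the smallest p in a comparison were named. Ifng, Cd3e and H2-Ea-ps were named after their values were seen. Promoters came from RefSeq (GRCm38.p6). A result of the list of class I regulators in cohort G is not reported here.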

Additional observations from a re-analysis of the deposited data

Results flagged for a closer look

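In groups of 4 mice, a mouse was singled out when its gap to the nearest other mouse took up most of the range of the group (Dixon's test at the 95% level). Chance gives about 1 in 20 for a single group and gene with normally distributed values. The genes share their mice, so the 70 groups and genes examined are not independent. A mouse was singled out in 14 of the 70. Of these, 9 were disease mouse 4 of cohort G, with 303 CPM of H2-Aa, 222 CPM of H2-Ab1, 257 CPM of H2-Eb1, 6.69 CPM of Ciita, 560 CPM of H2-K1, 333 CPM of H2-D1, 856 CPM of B2m, 45.3 CPM of Tap1 and 28.6 CPM of Psmb8. Cd74 was the 1 member for which this mouse was not singled out. The low values were H2-Aa in WT mouse 3 of cohort G (10.6 CPM) and Ciita in disease treated mouse 4 of cohort G (0.123 CPM). The other high values were H2-K1 and Tap1 in WT treated mouse 4 of cohort G (73.6 and 5.49 CPM) and Psmb8 in disease treated mouse 2 of cohort F (11.3 CPM).

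H2-K1 had log2 fold changes of opposite sign in the cohorts. Between disease and WT mice they were 1.81 in cohort G and -0.42 in cohort F, and between disease treated and disease mice -1.56 in cohort G and 0.36 in cohort F. Only the first was called, with edgeR adjusted p of 0.0204, 0.109, 0.0697 and 0.155 in this order. Without disease mouse 4 of cohort G the first was 0.53. Over the alternative fits the third ranged from -1.83 to -0.27. The difference between cohorts was not tested.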

How the results depend on the processing

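For disease against WT in cohort G, 6 of the 10 genes were called, against 3 with no filter on low counts, 0 with only the groups compared, and 3 to 9 with 1 mouse left out (3 without WT mouse 3 or disease mouse 4, 4 without WT mouse 2, 9 without disease mouse 1, 2 or 3). Of all genes, 21.9% were called in the main fit, 8.16% with no filter and 20.2% with only the groups compared. The shares were 14.6% without WT mouse 3, 14.9% without disease mouse 4 and 13% without WT mouse 2. Without disease mouse 1, 2 or 3 they were 18.4%, 15.1% and 24.2%. For WT treated against WT 2 were called with only the groups compared, a fit that called 28.7% of all genes. For disease treated against disease in cohort G the range with 1 mouse left out was 0 to 2, in fits that called 2.35% to 16.4% of all genes. In cohort F, disease against WT gave 5 genes with DESeq2, 4 with only the groups compared, 1 with Xist as a covariate (H2-K1, lower) and 0 to 3 with 1 mouse left out. The shares of all genes called were 8.03%, 10.1%, 0.937% and 0.119% to 5.03% in this order, beside 2.61% in the main fit. Ciita was called without disease treated mouse 2 or 4, and H2-Aa and Cd74 without disease treated mouse 3. Disease treated against disease in cohort F gave 1 gene with DESeq2 (8.24% of all genes) and 0 to 2 with 1 mouse left out (1.05% to 8.3%). The cause of these differences was not tested.

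Some uncalled genes changed sign. With Xist as a covariate, log2 fold changes were -0.01 for Psmb8 in WT treated against WT, and for disease treated against WT in cohort G -0.11 for Ciita, -0.13 for H2-K1, -0.20 for H2-D1, -0.11 for B2m, -0.39 for Tap1 and -0.29 for Psmb8. With thinned libraries Psmb8 had -0.17 and -0.16 in these comparisons, Tap1 0 in disease treated against disease of cohort F, and Ciita and Psmb8 -0.06 and 0.03 in disease treated against WT of cohort F. With 1 mouse left out, WT treated against WT ranged from -0.06 to 0.11 for H2-K1, -0.21 to 0.03 for Tap1 and -0.07 to 0.11 for Psmb8. In cohort G, Ciita ranged from -1.55 to 0.17 for disease treated against disease, Tap1 from -0.02 to 0.25 and Psmb8 from -0.07 to 0.15 for disease treated against WT, and Tap1 from -1.81 to 0.04 for the interaction. In cohort F, disease treated against disease ranged from -0.16 to 0.07 for H2-D1, -0.31 to 0.20 for Tap1 and -0.11 to 0.25 for Psmb8, and disease treated against WT from -0.23 to 0.40 for Ciita, -0.18 to 0.03 for H2-K1, -0.37 to 0.04 for B2m and -0.34 to 0.03 for Psmb8.

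In no comparison did every pair of mice with the same replicate number have a correlation of deviations above 0.1 (range -0.238 to 0.203), so the number was taken as a name. With it as a replicate block, 5 genes were called for disease against WT in cohort G (18.4% of all genes), where H2-K1 missed the threshold (1.41, edgeR adjusted p = 0.0524). In the other comparisons with a block 0 were called, beside 0.0648% to 25.8% of all genes. Ciita had the lowest counts of the 10 genes, which limits its precision.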
